A study of Homo sapiens with 5 samples.

Results

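The genes described here carry a LINC symbol with 5 digits, a name used for long intergenic noncoding RNA genes, and were expressed in NCI-H209 cells. They were chosen by their measured counts: a gene was a member when it had at least 50 counts in each of the 5 libraries, and 115 of the 840 genes with such a symbol in the deposited table of gene names met this minimum. NCI-H209 is a human small-cell lung cancer (SCLC) line that grows with neuroendocrine features. The 3 control libraries came from untreated NCI-H209 cells, and the 2 co-cultured libraries came from NCI-H209 cells that had shared medium with human brain microvascular endothelial cells (HBMECs) across a Transwell membrane for 24 h. All cells were of 1 line without genetic change, grown in serum medium, and the HBMECs stayed in the upper insert, so the model holds soluble signals and not cell contact. The question of the comparison was how the tumor cells' transcriptome changed under the influence of brain endothelial cells. The labels do not say whether libraries of a group came from separate cultures, so the p-values measure the spread between these libraries, which may be technical.

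Long noncoding RNAs are transcribed, capped and mostly spliced like mRNAs but are not annotated as coding for proteins. Some act on genes beside their own locus, some serve as hosts of microRNAs or small nucleolar RNAs (snoRNAs) that are cut from their introns or exons, and for many no function is known. The LINC symbol is a naming scheme meant for genes that lie between protein-coding genes, though not all that carry it do. It does not stand for a family with shared sequence. Many LINC genes are transcribed in few cell types or stages, and several have been studied in lung and other tumors. Because the libraries were made from RNA depleted of rRNA with a directional kit, RNAs without a poly(A) tail were kept and the strand of each read was known.

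Host genes show what such transcripts can carry, and the mature microRNAs are printed with the seed (bases 2 to 8) in capitals, since the seed decides which mRNAs a microRNA pairs with. LINC00461, on the minus strand of chromosome 5, spans MIR9-2, a gene of the neural microRNA miR-9, and LINC01138, on the minus strand of chromosome 1, spans MIR5087. The sequences are RefSeq entries on GRCh38.p14, at chr5:88666902-88666924, chr5:88666866-88666887 and chr1:148334522-148334544. The 3 seeds differ from each other. The mature microRNAs themselves are too short for these libraries and were not measured.
hsa-miR-9-5p: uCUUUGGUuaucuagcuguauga
hsa-miR-9-3p: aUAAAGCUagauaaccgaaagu
hsa-miR-5087: gGGUUUGUagcuuugcuggcaug

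Promoter windows are shown for 2 genes that rose and 2 that fell in co-cultured cells. The RNA counts do not show whether these starts were used in NCI-H209 cells or whether transcription from them changed. Each window runs from 250 bases before to 50 bases after the RefSeq start on GRCh38.p14, read 5′ to 3′ on the gene's own strand. They lie at chr3:183447358-183447657 (plus strand) for LINC00888, at chr19:27793891-27794190 (minus strand) for LINC00662, at chr5:6581886-6582185 (plus strand) for LINC01018 and at chr6:135497551-135497850 (plus strand) for LINC00271. Capitals mark matches, on either strand, to ACGTG (the core of the hypoxia response element), TGANTCA (the AP-1 site), CATTCC (the TEAD site), CCAAT (the NF-Y site) and TATAAA (the TATA box). The LINC00888 window holds 2 matches to the NF-Y motif, the LINC01018 window holds 1 match each to the hypoxia core, TEAD, NF-Y and TATA motifs, and the other two hold none of them.
LINC00888: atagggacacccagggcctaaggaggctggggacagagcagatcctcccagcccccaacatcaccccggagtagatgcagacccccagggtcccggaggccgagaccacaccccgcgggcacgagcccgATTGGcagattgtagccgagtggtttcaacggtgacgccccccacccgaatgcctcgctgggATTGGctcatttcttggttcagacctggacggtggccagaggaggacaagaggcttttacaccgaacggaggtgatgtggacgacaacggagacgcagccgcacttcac
LINC00662: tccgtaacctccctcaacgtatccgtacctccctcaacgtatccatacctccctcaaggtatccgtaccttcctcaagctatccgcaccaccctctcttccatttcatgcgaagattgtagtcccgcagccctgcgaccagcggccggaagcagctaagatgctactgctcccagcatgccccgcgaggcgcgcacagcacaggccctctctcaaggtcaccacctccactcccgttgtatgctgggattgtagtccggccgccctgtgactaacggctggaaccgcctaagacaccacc
LINC01018: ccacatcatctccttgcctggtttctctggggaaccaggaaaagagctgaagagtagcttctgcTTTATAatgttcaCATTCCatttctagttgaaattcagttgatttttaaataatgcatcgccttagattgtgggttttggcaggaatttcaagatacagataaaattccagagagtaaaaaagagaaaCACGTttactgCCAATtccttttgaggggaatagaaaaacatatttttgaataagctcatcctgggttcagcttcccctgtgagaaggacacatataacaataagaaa
LINC00271: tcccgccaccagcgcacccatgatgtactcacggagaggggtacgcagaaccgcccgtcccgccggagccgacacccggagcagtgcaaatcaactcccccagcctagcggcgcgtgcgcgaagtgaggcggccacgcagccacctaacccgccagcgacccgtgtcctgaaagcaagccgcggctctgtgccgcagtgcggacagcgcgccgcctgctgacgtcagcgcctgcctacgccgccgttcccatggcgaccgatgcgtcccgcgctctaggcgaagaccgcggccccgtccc

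Gene counts per library summed to between 15457071 and 19157348. CPM are reads of a gene relative to the normalised size of its library. The marker sums given here are instead relative to the summed gene counts of the library, without normalisation. Of the SCLC neuroendocrine markers, 9 of 10 were tested, 4 were called higher and 1 lower. Their summed level was 2169 to 2565 CPM in control and 2779 to 2940 CPM in co-cultured libraries. The 12 endothelial markers summed to 9.78 to 18.9 CPM in control and 12.5 to 12.8 CPM in co-cultured libraries, and 3 of the 12 had at most 3 counts in every library while none was at 0 in all of them. Of the 8 endothelial markers tested, 1 was called, ESAM, with 3, 4 and 6 counts in control and 21 and 14 counts after co-culture (log2 fold change 2.14, adjusted p = 0.00666). ESAM was named after its values were seen. Control replicate 1 stood apart from the other control libraries, since its counts differed from theirs by a chi-square, divided by its degrees of freedom, of 17.9 and 18.1, compared with 6.34 between control replicates 2 and 3 and 4.59 between the co-cultured libraries. Reads that fell on no annotated gene were 47.3% to 51.2% of all reads in control and 40.1% to 40.8% in co-cultured libraries, and unmapped reads were 8.13% to 8.48% and 15.9% to 16.8%. The read shares and the neuroendocrine sums did not overlap between the groups, while the co-cultured endothelial sums lay within the control range. What part these shares and markers had in the results on LINC genes was not tested.

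Of the 115 LINC genes, 23 overlapped a coding gene, and the 115 lay on 22 chromosomes. The annotation (GENCODE release 29 on GRCh38) types 87 of them as lincRNA, 13 as processed transcripts, 7 as antisense RNAs, 6 as transcribed pseudogenes and 2 as RNAs from a bidirectional promoter. Their mean count per library ran from 62 to 2677 with a median of 207. Their length of exon sequence had a median of 3043 bases, and their mean level per length had a median of 4.77 CPM per kilobase, with a range of 0.397 to 29.9. Protein-coding genes of the same count range, which are 9752 genes with at least 50 counts in every library and a mean of at most 2677, had a median of 6.77 CPM per kilobase. Just inside the minimum were LINC01176 (lowest count 51), LINC01138 (52) and LINC01424 (52), and just outside it were LINC00623 (49), LINC01001 (48) and LINC01523 (48).

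In co-cultured cells more LINC genes were lower than higher. With edgeR's quasi-likelihood test and Benjamini-Hochberg adjustment over all 20360 genes tested, 9 LINC genes (7.83%) were higher and 36 (31.3%) were lower at an adjusted p under 0.05, and 70 were not called. Over all genes tested, 18.4% were higher and 15.0% were lower. Among the coding genes of the same count range, 25.5% were higher and 16.8% were lower. The log2 fold change of the LINC genes, co-cultured over control, had a median of -0.22 with quartiles of -0.52 and 0.10, whereas the median was 0.05 for the coding genes and -0.03 for all genes. Of the 115 LINC genes, 77 had a log2 fold change below 0. The difference between the kinds of gene is a description and was not tested.

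The counts of calls depended on single libraries. Without control replicate 1 there were 17 LINC genes higher and 47 lower. Without co-cultured replicate 1 there were 4 and 12, without co-cultured replicate 2 there were 4 and 19, without control replicate 2 there were 6 and 24, and without control replicate 3 there were 5 and 25. In each of these fits more LINC genes were lower than higher, and more of the coding genes were higher than lower. With upper-quartile normalization the LINC genes divided into 6 higher and 41 lower, and the coding genes into 20.6% higher and 22.5% lower, so that the excess of rises among coding genes was lost there while the LINC median lay 0.27 below the coding median as before.

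**Figure D1:**
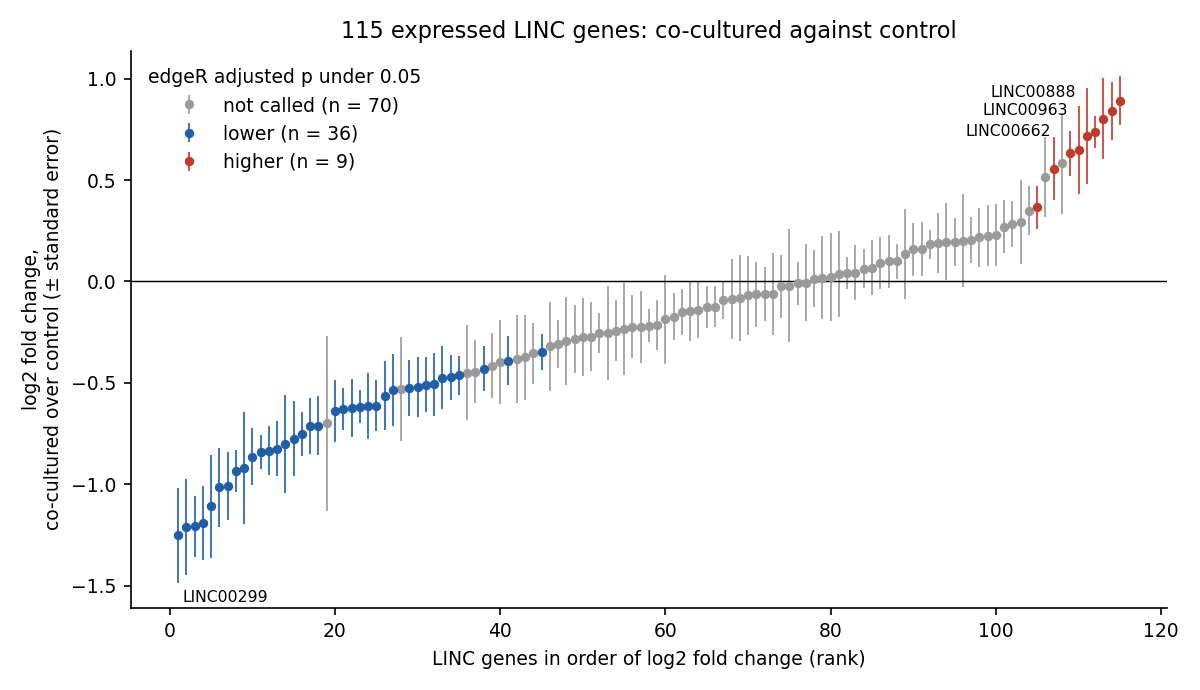
The 115 LINC genes in order of their log2 fold change (vertical axis, co-cultured over control, bars of 1 standard error), with the horizontal axis giving the rank. The 36 genes called lower reach -1.25 (LINC00299), the 9 called higher reach 0.89 (LINC00888), and 77 of the 115 lie below 0.

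Levels per library showed the same order. The LINC genes together made up 2512, 2633 and 2667 CPM in the control libraries and 2265 and 2338 CPM in the co-cultured libraries, so the groups did not overlap. For each library the difference of log2(CPM + 0.5) from the control mean was taken over the LINC genes, and its median was -0.05, 0.02 and 0.05 in control and -0.17 in both co-cultured libraries. The same median over the coding genes was 0.03, -0.02 and -0.01 in control, and 0.06 and 0.05 after co-culture. Gene by gene, both co-cultured libraries were below all control libraries for 51 LINC genes (44.3%, against 30.0% of all genes tested and 28.9% of the coding genes) and above all of them for 18 (15.7%, against 29.4% and 38.0%).

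**Figure D2:**
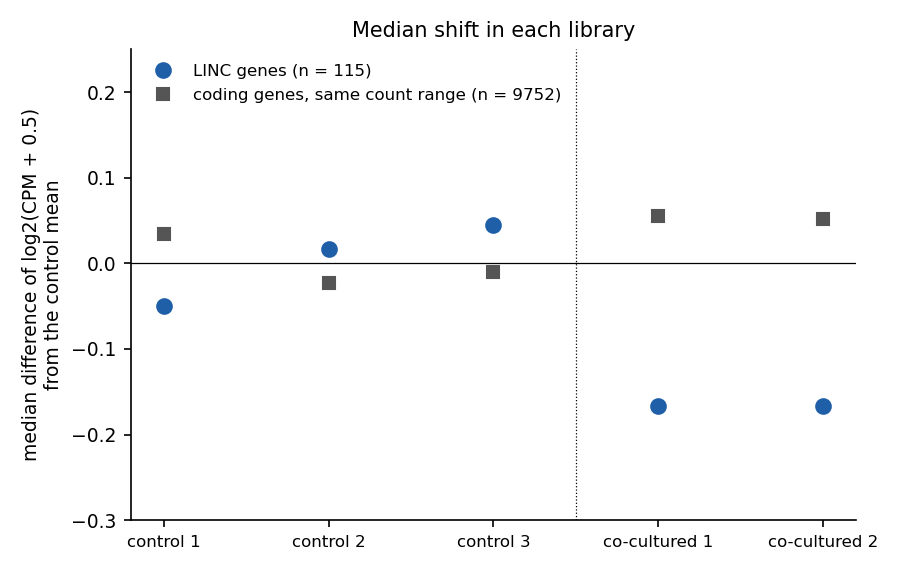
Median difference of log2(CPM + 0.5) from the control mean in each of the 5 libraries, for the 115 LINC genes (circles) and the 9752 coding genes of the same count range (squares). Both co-cultured libraries have a LINC median of -0.17 and a coding median of 0.05 or 0.06, while the control libraries lie between -0.05 and 0.05.

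The number of reads behind a gene sets how often a change can be called, so the genes were also divided by their mean count. Under a mean of 100 counts, 2 of 19 LINC genes were higher and 1 was lower, beside 12.2% and 3.71% of 377 coding genes. From 100 to under 200, 2 of 33 LINC genes were higher and 13 were lower, beside 17.4% and 14.7% of 1131 coding genes. From 200 to under 400, 2 of 35 were higher and 10 were lower, beside 22.4% and 17.2% of 1813 coding genes. At 400 and above, 3 of 28 were higher and 12 were lower, beside 28.5% and 17.9% of 6431 coding genes. Above a mean of 100 counts the LINC genes thus had a larger share of lower genes and a smaller share of higher genes than coding genes in each bin, and in the lowest bin few genes of either kind were called.

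Other noncoding classes with the same minimum were divided in a like way. Among 324 lincRNA genes without a LINC symbol, 8.95% were higher and 24.7% were lower, and their median was -0.18 on the log2 scale. For 367 antisense RNA genes these shares were 4.63% and 24.5%, for 95 processed transcripts 3.16% and 40.0%, for 112 sense intronic genes 3.57% and 21.4%, and for 158 transcribed unprocessed pseudogenes 9.49% and 27.8%. More lower than higher genes were thus found in these classes as well. Within the LINC genes, 7 of the 13 processed transcripts and 26 of the 87 lincRNAs were lower, while none of the 5 transcribed unprocessed pseudogenes was lower and 2 of them, LINC00888 and LINC01145, were higher.

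**Figure D3:**
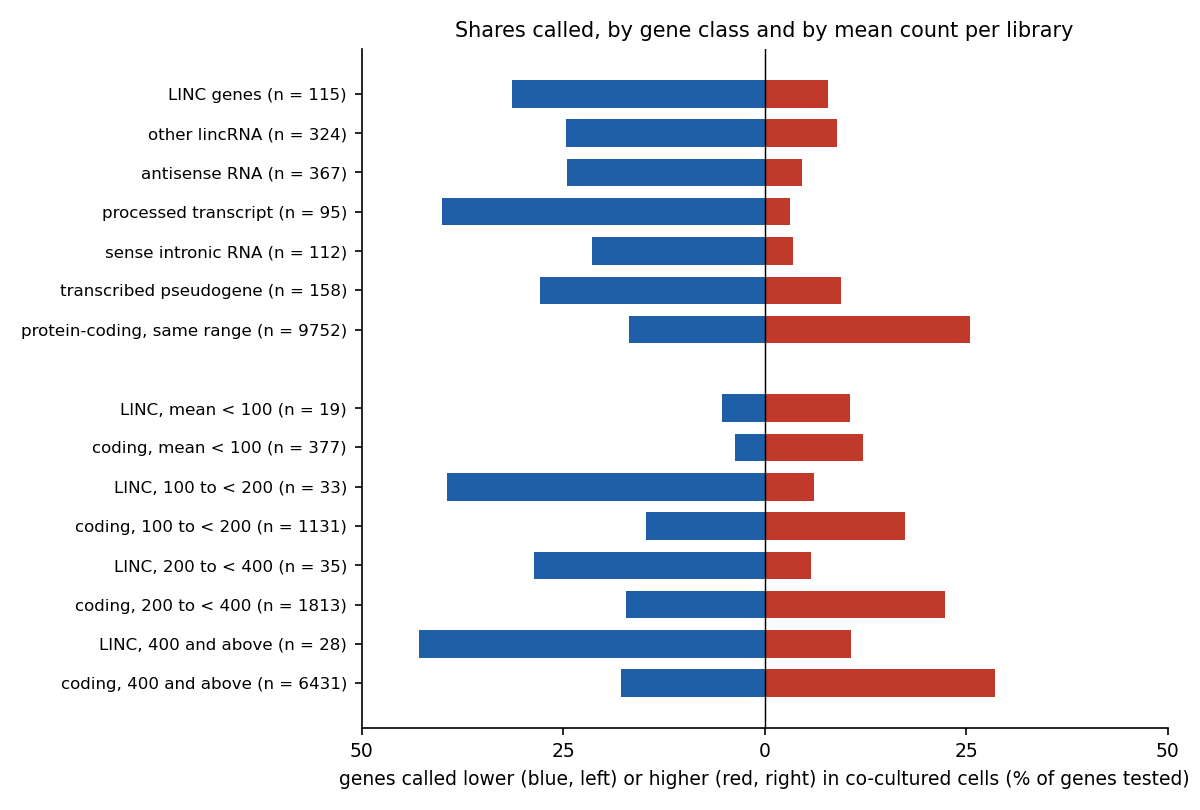
Share of genes called lower (blue, to the left) and higher (red, to the right) in co-cultured cells, in percent of the genes tested, by gene class (upper bars) and by mean count per library (lower bars). LINC genes have 31.3% lower and 7.83% higher, and coding genes of the same count range have 16.8% lower and 25.5% higher.

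The study took genes with an absolute fold change above 1 and a p under 0.05 as differentially expressed, which is read here as a change of more than 1 on the log2 scale in either direction and an unadjusted p. This criterion was met by 7 downregulated LINC genes (6.09%) and by no upregulated one. Over all genes tested, 5.01% were downregulated and 5.44% upregulated by this criterion, and among the coding genes of the same count range 1.33% and 3.8%. At an unadjusted p under 0.05 alone, 14 LINC genes (12.2%) were higher and 42 (36.5%) were lower, beside 23.0% and 21.2% of all genes tested and 31.2% and 21.8% of the coding genes. DESeq2 gave no upregulated LINC gene at the criterion either. The 7 genes were LINC00299, LINC01399, LINC01341, LINC02487, LINC02475, LINC00271 and LINC01359. Of 226 LINC genes that were tested but fell under the minimum, 22 (9.73%) were upregulated and 28 (12.4%) downregulated by the criterion. Over all 341 LINC symbols tested, 22 (6.45%) were upregulated and 35 (10.3%) downregulated. The minimum of 50 counts in every library takes out genes that are low in 1 group: when genes with a mean of at least 50 counts were taken instead, which adds 31 genes, 14 were downregulated and 1 was upregulated. Among those added, the counts of LINC01310 were 67, 99 and 128 in control against 8 and 9 after co-culture (log2 fold change -3.33, adjusted p = 0.000323), and LINC00365 had 102, 44 and 61 against 127 and 121 counts (log2 fold change 1.02, adjusted p = 0.0258).

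Of the 9 LINC genes that rose, LINC00888 had the largest log2 fold change. It is annotated as a transcribed pseudogene of 2131 exon bases on chromosome 3 (183447608 to 183456013, plus strand), bears the name SNHG33 in RefSeq and spans snoRNA genes, among them SNORA63D. Its level was 14.0, 12.6 and 13.2 CPM in control and 22.4 and 26.8 CPM in co-cultured libraries. The groups did not overlap, and the log2 fold change was 0.89 (SE 0.12, adjusted p = 0.000776), a 1.85-fold rise. Its nearest coding gene, MCF2L2, starts 18830 bases away on the opposite strand and was lower (-0.26, adjusted p = 0.0455). The other member that spans a snoRNA gene was LINC02001 (SNHG30 in RefSeq, with SNORD7). It was at 12.1, 13.0 and 11.5 CPM in control and 15.5 and 15.7 CPM after co-culture. Its log2 fold change of 0.35 missed the threshold (adjusted p = 0.0511). LINC02001 passed without control replicate 1 (0.0253), but not without control replicate 2 (0.0724) or control replicate 3 (0.152).

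LINC00963, a processed transcript of chromosome 9 that was first described in prostate cancer, was at 28.2, 38.1 and 41.8 CPM in control and 66.5 and 62.6 CPM in co-cultured libraries. Control replicate 1 was the lowest of the control libraries, and both co-cultured libraries were well above them. The log2 fold change was 0.84 (SE 0.14, adjusted p = 0.00235), and it ranged from 0.70 to 0.97 with 1 library left out. LINC00662, a lincRNA of chromosome 19 studied in lung and other tumors, was by count the most abundant gene that rose, and it was the most even within groups. It had 43.9, 45.1 and 47.8 CPM in control and 74.7 and 77.2 CPM after co-culture, and its log2 fold change was 0.74 (SE 0.08, adjusted p = 0.000236). No coding gene lies near LINC00662, since the nearest, UQCRFS1, is 1411381 bases away.

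LINC00908, a lincRNA of chromosome 18, was at 17.8, 16.3 and 15.8 CPM in control and 27.2 and 24.2 CPM in co-cultured libraries (log2 fold change 0.63, SE 0.11, adjusted p = 0.00272), with an adjusted p of 0.0503 without co-cultured replicate 1. LINC01116, a lincRNA of chromosome 2, was at 9.46, 8.29 and 10.2 CPM against 12.2 and 15.3 CPM (0.55, adjusted p = 0.0229). MTX2, its nearest coding gene, was at -0.03 (adjusted p = 0.814). The adjusted p of LINC01116 was 0.0768 without control replicate 2 and 0.22 without co-cultured replicate 2. LINC01979 of chromosome 17 was at 3.62, 4.92 and 3.38 CPM against 6.78 and 5.61 CPM (0.65, adjusted p = 0.0457). That call was lost without control replicate 3 (adjusted p = 0.136), co-cultured replicate 1 (0.291) or co-cultured replicate 2 (0.103), in DESeq2 (0.0639), with upper-quartile normalization (0.0774) and with a filter of 10 counts in every library (0.0516). The nearest coding genes of LINC00963, LINC00908 and LINC01979, which are NTMT1 (0.17), ZNF516 (-0.18) and TBC1D16 (0.25), were not called.

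LINC01138 and LINC01145 rose as well, and they share sequence with each other. Both lie in the duplicated region near the centromere of chromosome 1, and 57.4% of a LINC01138 transcript and 100% of a LINC01145 transcript matched other annotated transcripts at 98% identity or more, so their counts are uncertain as to which copy was transcribed. LINC01138 had 3.24, 3.43 and 2.66 CPM in control and 5.25 and 5.61 CPM in co-cultured libraries (log2 fold change 0.80, SE 0.20, adjusted p = 0.0136). LINC01145 had 6.38, 4.15 and 3.69 CPM against 8.09 and 7.46 CPM (0.72, SE 0.24, adjusted p = 0.044). LINC00623 and LINC00869, which share sequence with LINC01145 and fell short of the minimum, had log2 fold changes of 0.92 and 0.74 (adjusted p = 0.0268 and 0.0416). Leaving out control replicate 3, co-cultured replicate 1 or co-cultured replicate 2 ended the call of both members, with adjusted p of 0.0507, 0.0766 and 0.0998 for LINC01138 and 0.117, 0.212 and 0.146 for LINC01145, and leaving out control replicate 2 ended that of LINC01145 (0.12). LINC01145 also lost its call with upper-quartile normalization (0.0572) and in unstranded counts (0.0912).

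The smallest rise called was that of LINC01184, which starts beside SLC12A2, the gene of the sodium-potassium-chloride cotransporter NKCC1, and runs away from it on the opposite strand. LINC01184 was at 34.6, 31.5 and 28.1 CPM in control and 41.4 and 39.3 CPM in co-cultured libraries (log2 fold change 0.37, SE 0.11, adjusted p = 0.0269), and SLC12A2 was 0.76 higher (adjusted p = 0.00114). LINC01184 also overlaps CCDC192 on the other strand, and up to 39.2% of its stranded reads were on that strand. Counted without regard to strand, its log2 fold change was 0.07 (adjusted p = 0.573). The call was lost without control replicate 2 (adjusted p = 0.059), control replicate 3 (0.0803), co-cultured replicate 1 (0.175) or co-cultured replicate 2 (0.113), and with upper-quartile normalization (0.0506).

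**Figure D4:**
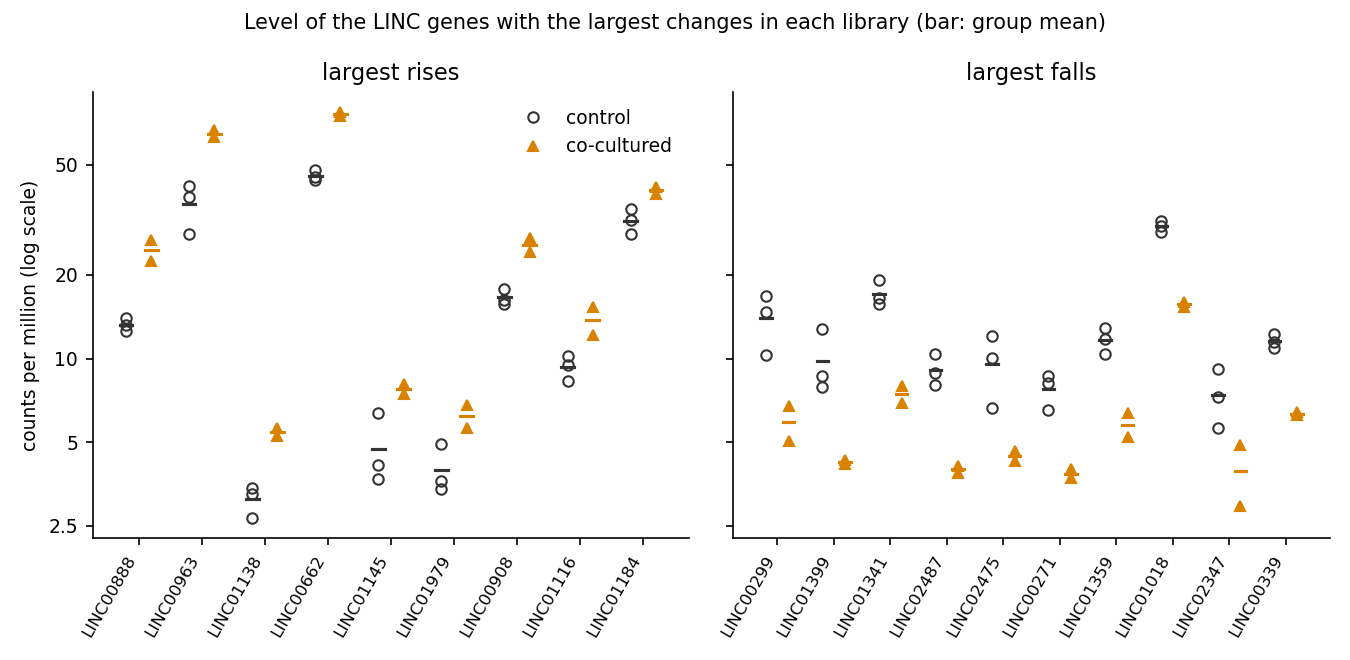
Level in CPM (log scale) of the 9 LINC genes that rose (left) and the 10 with the largest falls (right) in each control library (open circles) and co-cultured library (triangles), with a bar at the mean of each group. For each of these 19 genes the co-cultured libraries lie wholly above or wholly below the control libraries, with LINC00662 at 43.9 to 47.8 against 74.7 to 77.2 CPM and LINC01018 at 28.6 to 31.3 against 15.3 to 16.0 CPM.

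The largest fall was that of LINC00299, a lincRNA of chromosome 2 (8007771 to 8383621, minus strand) with 18 exon blocks. It was at 10.3, 16.8 and 14.7 CPM in control and 5.03 and 6.74 CPM in co-cultured libraries, and both co-cultured libraries were below every control library. The log2 fold change was -1.25 (SE 0.23, adjusted p = 0.00349), and without co-cultured replicate 1 it was -1.04 (adjusted p = 0.0643). A second member of the same stretch of chromosome 2, LINC01814, fell from 78.1, 101 and 100 CPM to 53.6 and 50.8 CPM (log2 fold change -0.83, SE 0.12, adjusted p = 0.000975). The nearest coding gene of each is ID2, an inhibitor of basic helix-loop-helix transcription factors, which starts 295224 bases from LINC00299 and 85942 bases from LINC01814. The counts of ID2 itself were 6446, 4448 and 5026 in control against 2611 and 2215 after co-culture, which is a log2 fold change of -0.96 (SE 0.14, adjusted p = 0.000989).

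LINC01341, a processed transcript near the end of chromosome 1, was at 19.2, 16.5 and 15.7 CPM in control and 6.89 and 7.99 CPM in co-cultured libraries. It showed the smallest adjusted p of the 7 downregulated genes (log2 fold change -1.21, SE 0.15, adjusted p = 0.00048), while SCCPDH, 7876 bases away, was at -0.01 (adjusted p = 0.919). LINC01399 of chromosome 22 was at 12.8, 8.63 and 7.89 CPM against 4.15 and 4.29 CPM (-1.21, SE 0.24, adjusted p = 0.00457), and HMGXB4 beside it was also lower (-0.41, adjusted p = 0.00375). LINC02487 of chromosome 6 was at 10.4, 8.02 and 8.86 CPM against 3.88 and 4.10 CPM (-1.19, SE 0.18, adjusted p = 0.00141), and AFDN, 130632 bases away, was lower (-0.46, adjusted p = 0.00217). LINC02475 of chromosome 4 was at 6.65, 10.0 and 12.0 CPM against 4.26 and 4.62 CPM (-1.11, SE 0.25, adjusted p = 0.0093). Of these 4 genes, LINC01399 lost its call without co-cultured replicate 1 (adjusted p = 0.0567) and LINC02475 lost it without co-cultured replicate 1 (0.0988) or 2 (0.0656).

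LINC00271, listed as AHI1-DT in RefSeq, starts 25 bases from AHI1, a gene of the primary cilium, and is transcribed away from it. It was at 6.54, 8.63 and 8.19 CPM in control and 3.99 and 3.70 CPM in co-cultured libraries, and the groups did not overlap. The log2 fold change was -1.01 (SE 0.19, adjusted p = 0.00403). AHI1, from the other side of the same start region, had 2667, 2661 and 2703 counts against 2806 and 2294 counts and a log2 fold change of 0.10 (SE 0.07, adjusted p = 0.336). The promoter window of LINC00271 printed above had a GC content of 71%, and that of LINC01018 had 37.3%.

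LINC01359, a processed transcript 5721 bases from JAK1, a kinase of cytokine receptors, went the other way from its neighbor. It was at 10.4, 11.7 and 12.9 CPM in control and 6.34 and 5.22 CPM in co-cultured libraries (log2 fold change -1.01, SE 0.17, adjusted p = 0.00194), while JAK1 rose by 0.58 on the log2 scale (adjusted p = 0.000706). LINC01018, a lincRNA of chromosome 5, was at 31.3, 30.0 and 28.6 CPM in control and 16.0 and 15.3 CPM in co-cultured libraries. Its libraries were close to each other within each group, and the log2 fold change of -0.93 (SE 0.10, adjusted p = 0.000277) stayed between -0.96 and -0.90 with any library left out. Its neighbor NSUN2, an RNA methyltransferase gene, was at 0.02 (adjusted p = 0.888).

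LINC02347 and LINC00339 complete the 10 largest falls. LINC02347 of chromosome 12 was at 5.64, 9.18 and 7.27 CPM in control and 2.95 and 4.89 CPM in co-cultured libraries (log2 fold change -0.92, SE 0.28, adjusted p = 0.0303). Its call was lost without control replicate 2 (adjusted p = 0.098), control replicate 3 (0.063) or co-cultured replicate 1 (0.264). LINC00339 of chromosome 1 was at 10.9, 11.4 and 12.2 CPM against 6.39 and 6.28 CPM (-0.86, SE 0.14, adjusted p = 0.00197). It overlaps a coding gene model on the same strand, AL031281.2, which was at -0.27 (adjusted p = 0.187), and reads shared by both models are not counted for either.

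Per length, the 5 LINC genes with the highest levels were LINC02315 (29.9 CPM per kilobase), LINC01807 (28.2), LINC01578 (25.9), LINC00342 (24.0) and LINC01551 (19.9). LINC01578, named CHASERR in RefSeq, lies upstream of CHD2, a chromatin remodeler gene, and is known as a repressor of CHD2 in cis. It was at 144, 172 and 183 CPM in control and 100 and 97.8 CPM in co-cultured libraries (log2 fold change -0.75, SE 0.11, adjusted p = 0.00101), and CHD2, chosen here after its values were seen, had 4185, 5173 and 5718 counts against 4841 and 3864 counts, a log2 fold change of -0.04 (SE 0.12, adjusted p = 0.823). LINC00342 fell from 79.5, 75.5 and 73.6 CPM to 44.5 and 40.5 CPM (-0.84, SE 0.09, adjusted p = 0.000186). However, 100% of a LINC00342 transcript matched other annotated transcripts at 98% identity or more, so its locus is uncertain. LINC02315 was lower by less (22.4, 25.3 and 22.5 CPM against 16.4 and 17.4 CPM, log2 fold change -0.47, adjusted p = 0.0109), and its call was lost without co-cultured replicate 1 (adjusted p = 0.124) or 2 (0.0714). LINC01807 was not called (0.20, adjusted p = 0.199).

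LINC01551 was at 59.8, 44.6 and 48.3 CPM in control and 56.1 and 66.8 CPM in co-cultured libraries, so the groups overlapped (log2 fold change 0.27, adjusted p = 0.142). Without control replicate 1 it was 0.40 (adjusted p = 0.000853). It was 0.19 without control replicate 2 (adjusted p = 0.323) and 0.24 without control replicate 3 (0.263). LINC02282, which overlaps it on the opposite strand of chromosome 14, was lower (-0.56, SE 0.17, adjusted p = 0.0311), but up to 72% of its stranded reads lay on the strand of LINC01551. Its call was lost without control replicate 2 (adjusted p = 0.0668), control replicate 3 (0.119), co-cultured replicate 1 (0.134) or co-cultured replicate 2 (0.178).

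From a list of 26 LINC genes with roles described in other tissues or tumors, written from general knowledge, 11 were members. Higher in co-cultured cells were LINC00662 and LINC01116, and lower were LINC01578, LINC00339 and LINC00665. LINC00665 was at 61.1, 53.0 and 54.2 CPM in control and 39.1 and 42.3 CPM in co-cultured libraries (log2 fold change -0.46, SE 0.09, adjusted p = 0.0056), with an adjusted p of 0.0859 without co-cultured replicate 1. ZFP14, the zinc finger gene 2735 bases away, was lower as well (-0.68, adjusted p = 0.00264). Of a LINC00665 transcript, 37.9% matched LINC01535 at 98% identity or more. Of a LINC01535 transcript, 64.1% matched LINC00665, so part of the counts of both genes is uncertain as to locus. LINC01535 was also lower (-0.61, adjusted p = 0.00582). LINC00511, the most abundant LINC gene by count, was at 144, 143 and 140 CPM against 158 and 164 CPM, without overlap but short of the threshold (0.18, SE 0.07, adjusted p = 0.0798). Its adjusted p was 0.0101 without control replicate 1 and 0.0479 in unstranded counts. Without control replicate 2 it was 0.147, and without control replicate 3 it was 0.194.

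LINC00467 was at 46.4, 47.3 and 54.3 CPM in control and 39.7 and 42.9 CPM in co-cultured libraries. Its log2 fold change was -0.26 (SE 0.10, adjusted p = 0.0739). The adjusted p was 0.00599 without control replicate 1 and 0.0307 with upper-quartile normalization. Without control replicate 2 it was 0.107, and without control replicate 3 it was 0.243. LINC00649, which starts beside the ATP synthase gene ATP5PO, was at 83.6, 95.0 and 96.1 CPM against 99.4 and 96.8 CPM (0.10, SE 0.09, adjusted p = 0.402). LINC00632, from which the circular RNA CDR1-AS is made, was at 11.0, 13.9 and 11.9 CPM against 10.9 and 9.71 CPM (-0.24, SE 0.15, adjusted p = 0.241), and gene counts do not separate the circle from the linear RNA. LINC00461, the miR-9 host, was at 3.93, 4.20 and 4.66 CPM against 4.32 and 3.70 CPM, with overlapping groups (-0.09, SE 0.20, adjusted p = 0.766). Of the rest of the list, LINC00958, LINC00460 and LINC00261 were under the minimum. The other 12 symbols had no entry under that name in the deposited table of gene names and were not analysed here.

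The other 26 genes that were lower had log2 fold changes of -0.84 to -0.35. LINC00342 and LINC01814 had the largest falls of this group, followed by LINC01572 (45.7 CPM in control and 25.8 CPM in co-cultured libraries on average, log2 fold change -0.82, adjusted p = 0.00194). LINC00648 averaged 67.5 CPM in control and 44.0 CPM in co-cultured libraries (-0.62, adjusted p = 0.000676), and LINC01569 averaged 57.0 and 34.8 CPM (-0.71, adjusted p = 0.00422), with an adjusted p of 0.078 without co-cultured replicate 1. LINC01278, a processed transcript of the X chromosome, had the smallest fall called (52.1 and 41.0 CPM, -0.35, adjusted p = 0.0159), and that call was lost without control replicate 2 (adjusted p = 0.0573), control replicate 3 (0.0634), co-cultured replicate 1 (0.108) or co-cultured replicate 2 (0.144). LINC01572, LINC00648, LINC01569 and LINC01278 were chosen after their values were seen. Among the 70 genes not called, log2 fold changes ran from -0.70 (LINC00173) to 0.58 (LINC01963), and the control and co-cultured libraries of both of these genes overlapped. Without control replicate 1 both passed the threshold (adjusted p = 2.69e-05 and 1.05e-06). They did not pass without control replicate 2 (0.462 and 0.232) or control replicate 3 (0.545 and 0.223).

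Coding neighbors did not move in step with the LINC genes as a rule. The nearest coding gene was tested for 96 of the 115 LINC genes, and 55 of the 96 pairs (57.3%) had log2 fold changes of the same sign. Across these 96 genes Pearson's r was 0.23 and Spearman's rho was 0.23, given as a description, since some pairs share a neighbor or overlap and all come from the same libraries. In 19 pairs both genes were called, of which 11 were both lower and 1 was both higher, 5 had a lower LINC gene with a higher neighbor, and 2 the reverse. Divergent starts were counted where a coding gene on the opposite strand starts within 2000 bases upstream, or just downstream, of the LINC start. The 16 LINC genes with such a start had a median log2 fold change of 0.00, with 1 higher and 3 lower. The 83 that neither share such a start nor overlap a coding gene had a median of -0.21, with 7 higher and 27 lower.

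**Figure D5:**
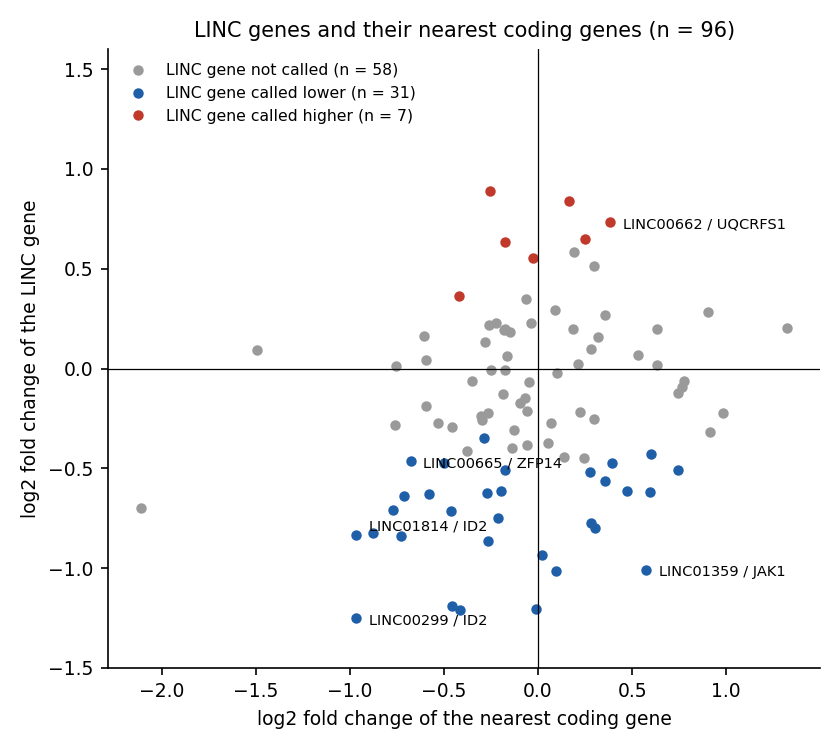
Log2 fold change of each LINC gene (vertical axis) against that of its nearest coding gene (horizontal axis) for the 96 pairs in which the neighbor was tested. LINC00299 and LINC01814 share the neighbor ID2 at -0.96, and LINC01359 at -1.01 is paired with JAK1 at 0.58.

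Strand and sequence copies bear on how far single counts can be assigned. In 79 LINC genes under 5% of the stranded reads lay on the opposite strand in every library, and 12 had more than 25% there in at least 1 library, of which 6 were lower and 1 was higher. The median share over the LINC genes was 0.563% to 0.613% in control and 0.8% and 0.94% after co-culture. Reads that mapped to several places were 7.05% to 7.75% of all reads in control and 7.27% to 7.35% in co-cultured libraries. They were not counted for any gene. A near-identical copy was found for 11 LINC genes, of which 3 were lower and 2 were higher. It was defined as at least 50% of 1 transcript matched by other loci together, at 98% identity or more over at least 200 bases. The 104 genes without such a copy had 33 lower and 7 higher and a median log2 fold change of -0.22.

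RefSeq promoter windows were found for 90 of the 115 LINC genes, and 74 of these start within 1000 bases of the start used for counting. ACGTG was present on either strand in 26 of the 74 windows (35.1%), beside 21.6% of all 27305 windows and 26.7% of 8072 windows of coding genes of the same count range. It was present in 8 of the 21 windows of lower genes, in 0 of the 7 of higher genes and in 18 of the 46 of genes not called. CACGTG, the E-box, which contains ACGTG, was present in 8 of the 74 windows (10.8%, all windows 7.43%, coding windows 10.3%). CCAAT was present in 35 (47.3%, all windows 35.7%, coding windows 37.3%), with 13 of 21 lower genes and 1 of 7 higher genes. TGANTCA was present in 6 windows (8.11%, all windows 7.76%, coding windows 3.83%), CATTCC in 10 (13.5%, all windows 14.0%, coding windows 10.3%) and TATAAA in 7 (9.46%, all windows 12.0%, coding windows 4.86%). These matches describe letters in a window and do not show that a factor bound there.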

How the data were processed

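RNA-Seq libraries of 3 control and 2 co-cultured NCI-H209 samples were analysed. The submitters' processing notes name CASAVA 1.8, STAR 2.6.1b, DESeq2 and GRCh38. The authors deposited read counts per gene without regard to strand and for each strand, and the counts of the library's strand were used. Their comparison table, with fold changes and p-values, served only for gene names.

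Genes were kept by filterByExpr (20360 genes), normalized by TMM and compared with edgeR 4.0.16 (R 4.3.3) by the quasi-likelihood test with Benjamini-Hochberg adjustment. Standard errors were taken as the size of the log2 change over the root of F. The biological coefficient of variation was 10.2%. The steps were tested on simulated data. Copies were sought with blastn 2.17.0. Named genes were the 10 largest rises and falls among called members without overlapping groups, the 5 highest per kilobase, microRNA hosts, a list of known LINC genes, and neighbors of the rises and falls. Members and lists were chosen with earlier results of these data known. Alternatives were DESeq2 1.42.0, other normalizations, filters and minima, unstranded counts, a replicate block and leaving out libraries. The labels do not say whether replicate numbers pair the samples.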

Additional observations from a re-analysis of the deposited data

How the results depend on the processing

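More LINC genes were lower than higher in every setting tried, and the LINC median stayed below the coding median in each. With 1 library left out, 4 to 17 LINC genes were higher and 12 to 47 lower, 0 to 1 were upregulated and 4 to 8 downregulated at the criterion, and the median ran from -0.25 to -0.17. Coding genes then ranged from 1230 to 3563 higher and 595 to 2308 lower. A minimum of 20 counts gave 14 higher, 2 upregulated, 13 downregulated and a median of -0.15. A minimum of 100 counts gave 1 downregulated and a median of -0.15. A mean of at least 50 counts gave 14 downregulated and 1 upregulated. With upper-quartile normalization the LINC median was -0.30 and the coding median turned to -0.027. The LINC median was -0.16 in unstranded counts and -0.17 without genes over 25% opposite-strand reads. Leaving out genes with copies, a choice made after seeing the data, gave 7 higher and 33 lower. DESeq2 gave 8 higher and 32 lower. LINC00461 ranged from -0.20 to 0.021 with 1 library left out and turned sign without co-cultured replicate 2. Of 360 values for 30 named genes, 316 kept direction and side of the threshold, 38 lost the call, 5 gained it and 1 turned. The cause of these changes was not tested.

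A fit with the replicate number as a block gave 5 LINC genes higher and 26 lower, 4 downregulated at the criterion, and 1071 coding genes lower. In it LINC01138 (adjusted p = 0.0754), LINC01145 (0.107), LINC01979 (0.163) and LINC01184 (0.166) did not pass the threshold. Replicate numbers 1 and 2 occur in both groups, and the correlations of same-numbered deviations from the group means were -0.11 and -0.07. With 2 co-cultured libraries these deviations mirror each other, so the values cannot decide whether the samples were paired.

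Depth limits the genes under a mean of 100 counts, of which 3 of 19 were called, and counts of copied loci remain uncertain.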
